A study of Mus musculus with 76 samples.

Results

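Extracellular catalase (EC CAT) was given to 4T1 tumors, a mouse mammary carcinoma line of Balb/c origin grown under the skin of the flank, and whole-tumor RNA was compared with that of tumors given the carrier alone. The tumors were chosen by their labels: parental 4T1 tumors injected with CAT-ABP + alum (6 tumors) or with alum (5 tumors), together 11 of the 38 tumors and 22 of the 76 libraries of the study. CAT-ABP is recombinant human catalase that carries an alum-binding peptide, so that it is anchored to the particles of aluminum hydroxide (alum) injected with it. Young adult female Balb/c mice received a single intratumoral injection of 20 μg CAT-ABP with 100 μg alum, or of 100 μg alum, on day 6 after inoculation, and tumors were harvested on day 8 (days as labelled). None of these mice received a doxycycline diet and the cells carried no transgene. All control tumors received alum, itself an irritant and an adjuvant, but no other protein, so that the activity of catalase and the injection of a recombinant human protein cannot be told apart. Each tumor was 1 animal, and its 2 technical libraries were summed. The other arms of the study, used here only for contrast, were CT26 colon carcinoma tumors with the same 2 injections (6 and 5 tumors) and 4T1-CAT tumors, which express catalase inside the cells under a doxycycline diet, again with the same 2 injections (5 and 5 tumors).

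Catalase converts hydrogen peroxide to water and oxygen. Acute phase proteins such as serum amyloid A and haptoglobin are made by the liver and, locally, by epithelial cells, adipocytes and myeloid cells under IL-1 and IL-6, with C/EBP and NF-κB factors at their promoters. CXCL5 and its relatives attract neutrophils through the receptor CXCR2. Mast cells are resident in skin and connective tissue and carry the high-affinity IgE receptor and granules of tryptase, chymase and carboxypeptidase A3. Whole tumor tissue holds tumor cells, stroma, infiltrating leukocytes and some adjacent skin, fat and muscle, and in such bulk samples fewer cells of a type and less RNA per cell cannot be told apart.

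Tumor totals ran from 837403 to 8543636 estimated counts with CAT-ABP + alum and from 2713843 to 6992462 with alum. CAT-ABP + alum replicate 4 had the lowest total and stood apart from the rest: its first principal component score was 110.3, whereas the other 10 tumors lay between -18.6 and -0.73, and its median correlation with the other tumors across genes was 0.891 against 0.956 to 0.968. Levels below are CPM after TMM scaling, counts brought to a common library total, and are compared between tumors only. All 6 CAT-ABP + alum tumors and alum replicates 1 and 2 carried 1 pair of first indices, and alum replicates 3, 4 and 5 another. This grouping is called the index set below. As all treated tumors were in 1 set and 3 of 5 alum tumors in the other, treatment and index set were partly confounded. Values within the set that held both groups are given beside many of the results.

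No gene passed the threshold. Of 13092 genes tested with edgeR's quasi-likelihood test, 0 (0%) reached a Benjamini-Hochberg adjusted p of 0.05, and the lowest adjusted p was 0.997. At an unadjusted p under 0.05 there were 368 genes (2.81%), of which 195 (1.49%) were higher and 173 (1.32%) lower with CAT-ABP + alum. Where no gene differs, that threshold lets through a share of about 0.05, and the share found was below it. DESeq2, with 29773 genes tested, gave 0 genes at the adjusted threshold and 528 at the unadjusted one. The median log2 fold change over all genes was -0.003 and the median of its absolute value 0.13, with a median standard error of 0.20. In 27 genes (0.206%) every CAT-ABP + alum tumor lay above every alum tumor, and in 14 (0.107%) below. The genes described next are therefore the head of a ranking, with their spread, and not a set of called genes. The adjusted p of each gene ranked here was 0.997 or 0.999 (edgeR, Benjamini-Hochberg).

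Promoter windows of 3 of the genes described below follow (RefSeq, GRCm38.p6, 300 bases that span the annotated start, written 5′ to 3′ along the gene's strand). They were picked because each holds a match to a motif searched for, and the windows of other listed genes are not printed. Saa3 and Ms4a2 were at the head of the ranking, Steap4 was not, and the 3 windows do not stand for their lists. In the first 2, the capitals mark a match to the C/EBP-type letters TTGCNNAA on either strand. Such a match stood in the windows of 3298 of all 27025 genes (10.8% of windows). Of the 10 acute phase genes tested for which a window was given, 6 had one (54.5% of their windows). So had 4 of the 10 mast cell genes with a window (33.3% of their windows), and the match was not particular to the acute phase list. In the third, the capitals mark a match to GATAAG on either strand, the letters bound by GATA factors. It stood in the windows of 2320 of all 27025 genes (7.44% of windows). The same letters stood in those of 3 of the 10 mast cell genes (25% of windows) and of 1 of the 10 acute phase genes (9.09% of windows).
Saa3, chr7:46715627-46715926, minus strand: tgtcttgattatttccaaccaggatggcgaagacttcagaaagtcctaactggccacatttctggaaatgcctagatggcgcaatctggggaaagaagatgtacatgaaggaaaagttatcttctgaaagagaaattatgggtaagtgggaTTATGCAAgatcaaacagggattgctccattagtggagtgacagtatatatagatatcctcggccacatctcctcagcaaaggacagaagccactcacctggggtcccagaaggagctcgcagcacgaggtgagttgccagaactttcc
Steap4, chr5:7960222-7960521, plus strand: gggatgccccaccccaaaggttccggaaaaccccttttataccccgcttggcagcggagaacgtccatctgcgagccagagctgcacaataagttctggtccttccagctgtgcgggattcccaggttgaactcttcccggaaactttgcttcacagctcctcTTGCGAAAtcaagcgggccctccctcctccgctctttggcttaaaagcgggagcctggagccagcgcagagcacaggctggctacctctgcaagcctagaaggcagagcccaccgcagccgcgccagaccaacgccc
Ms4a2, chr19:11623670-11623969, minus strand: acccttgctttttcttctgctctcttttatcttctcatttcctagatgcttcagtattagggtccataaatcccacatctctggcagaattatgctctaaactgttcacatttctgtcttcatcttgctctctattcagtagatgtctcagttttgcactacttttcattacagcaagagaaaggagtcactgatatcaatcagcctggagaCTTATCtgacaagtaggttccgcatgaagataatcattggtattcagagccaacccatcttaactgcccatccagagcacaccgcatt

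Of 12 mast cell genes tested, 5 were higher and 0 lower with CAT-ABP + alum at an unadjusted p under 0.05, and the median log2 fold change of the list was 0.59, against -0.003 over all genes. Over all genes tested, 1.49% were higher and 1.32% lower at that threshold, for comparison with this and every later list. All lists were chosen with earlier results of these data known, so that their counts are description and no test. Ms4a2 (ENSMUSG00000024680, chr19:11615523-11623719), the β chain of the high-affinity IgE receptor, headed the genes that were higher. Its level was 1.08, 1.22, 0.20, 0 and 0.86 CPM in alum replicates 1 to 5, and with CAT-ABP + alum it ran from 2.38 over a median of 2.80 to 4.43 CPM. The groups did not overlap (log2 fold change 2.43 ± 0.55 SE, two-sided exact permutation p = 0.00216, the smallest that 6 against 5 tumors allow). The gene was read at 0 to 22 counts per tumor. Its technical SD was 0.77 on the log2 scale, between the single libraries of 1 tumor. With libraries summed, its SD between tumors was 0.29 with CAT-ABP + alum and 0.87 with alum.

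The granule proteases lay closer together. Cpa3, mast cell carboxypeptidase, averaged 10.04 ± 2.62 CPM in the treated tumors (SD, n = 6) and 6.29 ± 1.79 CPM in the alum tumors (SD, n = 5), and 4 of 6 CAT-ABP + alum tumors were above every alum tumor (log2 fold change 0.65 ± 0.25 SE). Tpsab1, a tryptase, was at 34.7 ± 8.91 against 22.8 ± 8.04 CPM (0.58 ± 0.22 SE). Cma1, chymase, was at 81.2 ± 17.8 against 59.0 ± 17.6 CPM (0.47 ± 0.20 SE). Fcer1a, the receptor's α chain, was at 4.95 ± 2.00 against 2.72 ± 1.55 CPM (0.85 ± 0.38 SE), with alum replicate 5 at 5.46 CPM among the treated tumors. For Cpa3, Tpsab1, Cma1 and Fcer1a the two-sided exact permutation p was 0.0216, 0.0455, 0.0671 and 0.0563. Of the 7 tested genes that missed the unadjusted threshold, Kit, the stem cell factor receptor, had a log2 fold change of 0.55, and only Hpgds (-0.16) was below 0. Summed over the list, the level ran from 196.9 to 324.1 CPM with CAT-ABP + alum and from 157.2 to 255.3 CPM with alum, so that the groups overlapped, and CAT-ABP + alum replicate 3 was the highest tumor. Within the index set that held both groups, 4 of the list's genes were higher and 0 lower with a median of 0.36, and the log2 fold change of Ms4a2 was 1.34. With the index set as a block in the model, 2 were higher with a median of 0.34, and Ms4a2, again at 1.34, missed the unadjusted threshold. Leaving out CAT-ABP + alum replicate 4 gave 6 higher. The count was 2 without CAT-ABP + alum replicate 3 or without alum replicate 4, and 3 without alum replicate 3 or without both tumors with a shallow library.

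**Figure D1:**
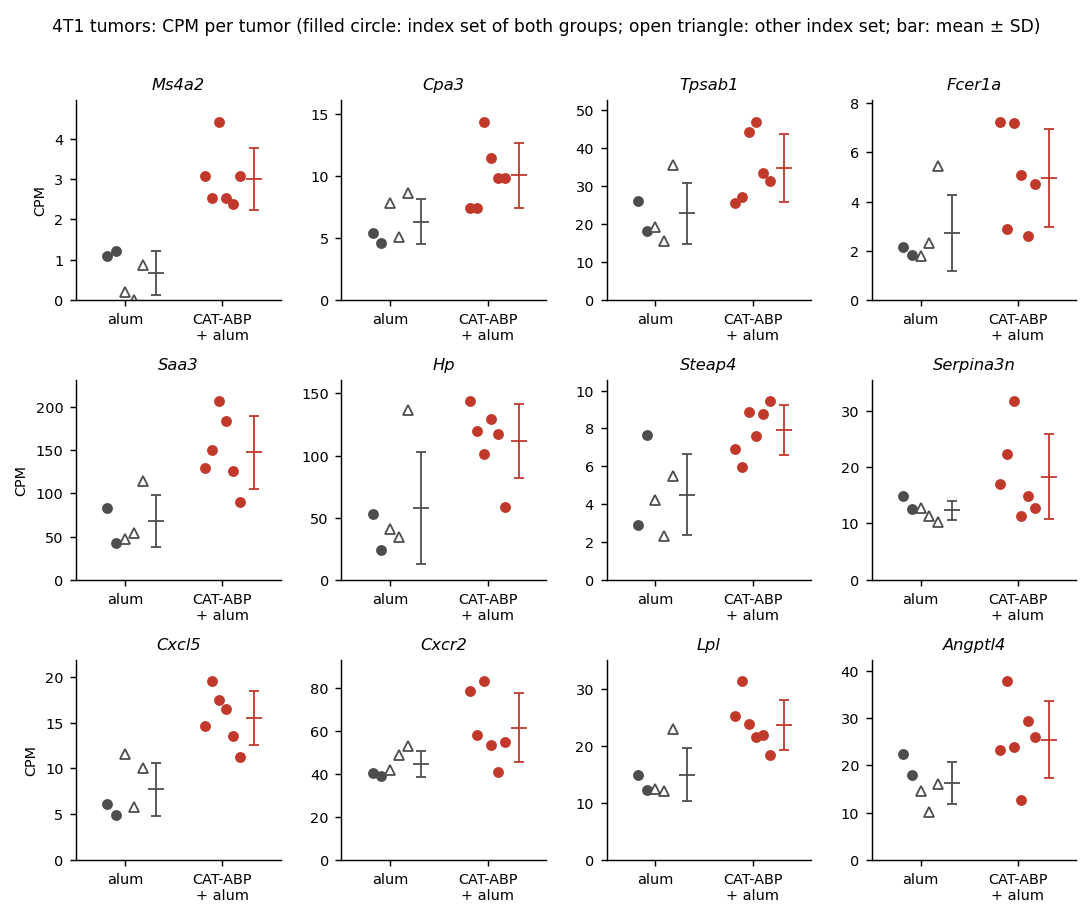
CPM of 12 mast cell, acute phase, neutrophil chemokine and lipid genes in each 4T1 tumor (grey, 5 alum tumors; red, 6 CAT-ABP + alum tumors), with the mean ± SD beside the points; triangles mark the alum tumors of the other index set. In Ms4a2 the groups do not overlap; in Hp the alum group spans 24.2 to 136.6 CPM, with replicate 5 within the treated range.

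Acute phase genes formed the next list: of 13 tested, 6 were higher and 0 lower at an unadjusted p under 0.05, with a median log2 fold change of 0.37. The shares over all genes tested were 1.49% higher and 1.32% lower. Saa3 (ENSMUSG00000040026, chr7:46711998-46715700), the serum amyloid A made outside the liver, stood at 82.8, 42.5, 47.7, 54.2 and 113.8 CPM in alum replicates 1 to 5. With CAT-ABP + alum it ran from 89.9 over a median of 139.8 to 205.9 CPM. The treated tumors were above all alum tumors in 5 of 6 cases, and alum replicate 5 was above CAT-ABP + alum replicate 6 (log2 fold change 1.117 ± 0.26 SE, two-sided exact permutation p = 0.00649). The value was at least 0.95 under every other way of processing tried. Its SD between tumors (0.43 with CAT-ABP + alum and 0.59 with alum, log2) was of the order of its technical SD of 0.34.

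Hp, haptoglobin, which binds free hemoglobin, showed how far a single tumor could carry a group. It was at 53.1, 24.2, 41.1, 34.2 and 136.6 CPM in alum replicates 1 to 5 and at 58.4 to 143.5 CPM (median 118.5) with CAT-ABP + alum. The treated tumors were all above the first 4 alum tumors, and only 1 was above the fifth (log2 fold change 0.96 ± 0.41 SE, two-sided exact permutation p = 0.0325). Steap4, a metalloreductase of inflamed and adipose tissue, was at 7.92 ± 1.33 against 4.51 ± 2.14 CPM (0.85 ± 0.29 SE). Within the shared index set the log2 fold change of Hp was 1.52 and that of Steap4 0.54, which missed the unadjusted threshold there. Hpx, the heme-binding hemopexin, was at 4.201 ± 3.65 against 1.33 ± 0.52 CPM, a mean raised by CAT-ABP + alum replicate 4 at 11.4 CPM. Serpina3n, a protease inhibitor, and Cfb, complement factor B, had log2 fold changes of 0.61 ± 0.23 and 0.32 ± 0.15 SE (two-sided exact permutation p = 0.0887 and 0.152). Other members of the list did not follow: Lcn2, the siderophore-binding lipocalin, was at 34.7 against 41.5 CPM (log2 fold change -0.26), Cp, ceruloplasmin, at 128 against 159 CPM (-0.33), and C3 at 80.97 against 80.84 CPM (0.02). The liver forms Saa1, Saa2, Orm1 and Orm2 were too low to be tested. Within the shared index set 2 of the list's genes were higher, without CAT-ABP + alum replicate 4 there were 5 higher and 1 lower, and without both tumors with a shallow library 5 and 1.

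Markers of fat differed between tumors alongside these genes. The adipocyte list had 4 genes tested of 10, and Car3 (64.3 ± 32.1 against 29.8 ± 21.99 CPM) and Cfd, adipsin (21.5 ± 7.44 against 13.3 ± 6.78 CPM), both named after their values were seen, were higher at an unadjusted p under 0.05. That count of 2 was 0 without alum replicate 2 or 3, and 1 without alum replicate 1 or 4 or without CAT-ABP + alum replicate 1, 2, 4 or 5. The 10 listed genes summed to 59.2 to 147 CPM with CAT-ABP + alum and to 34.1 to 109.8 CPM with alum, and alum replicate 5, which had the highest Saa3 and Hp of its group, also had the highest adipocyte and skeletal muscle levels of the group. Plin1, Cidec, Lep and Plin4, which mark mature adipocytes, were too low to be tested. Skeletal muscle genes had 0 of 10 in either direction over all tumors (median 0.10), but 3 higher without alum replicate 5 (median 0.54), 5 higher within the shared index set (median 0.92) and 2 higher with the index set as a block. Erythroid genes had 0 of 4 (median 0.44), and 2 higher within the shared set (median 1.13). The part of adjacent fat, muscle or blood in the acute phase, mast cell and lipid values was not tested.

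**Figure D2:**
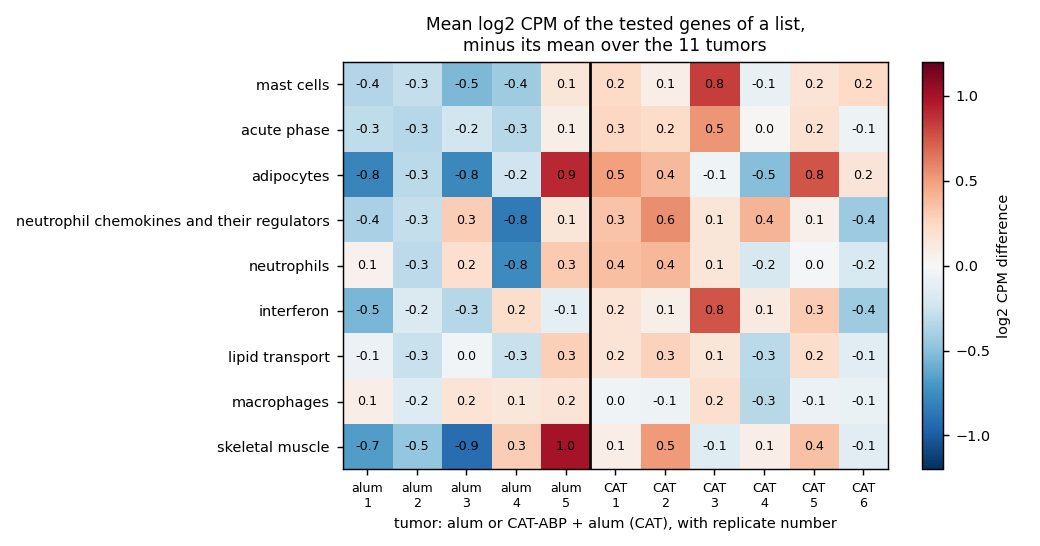
Mean log2 CPM of the tested genes of 9 lists in each 4T1 tumor, as the difference from the list's mean over the 11 tumors (color and printed value), with alum tumors left and CAT-ABP + alum tumors right of the line. CAT-ABP + alum replicate 3 is highest for mast cell, acute phase and interferon genes, and alum replicate 5 is highest for adipocyte and skeletal muscle genes.

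Among neutrophil chemokines and their regulators, 3 of 11 genes tested were higher and 0 lower at an unadjusted p under 0.05, and the list's median log2 fold change was 0.30. Cxcl5 (ENSMUSG00000029371, chr5:90759360-90761624), a ligand of CXCR2, was at 6.15, 4.90, 11.6, 5.82 and 10.1 CPM in alum replicates 1 to 5 and at 11.3 to 19.5 CPM (median 15.6) with CAT-ABP + alum. The groups met at 1 point only, where CAT-ABP + alum replicate 6 was below alum replicate 3 (log2 fold change 0.99 ± 0.24 SE, two-sided exact permutation p = 0.00433). The receptor Cxcr2 was at 61.4 ± 16.2 against 44.6 ± 5.96 CPM (0.47 ± 0.17 SE), and Il1b, the cytokine IL-1β, at 59.5 ± 12.3 against 45.2 ± 9.92 CPM (0.40 ± 0.19 SE). Cxcr2 and Il1b had a two-sided exact permutation p of 0.0411 and 0.0823. Within the shared index set Il1b was at 0.23 and missed the unadjusted threshold. The other ligands had log2 fold changes of 0.23 (Cxcl1), 0.48 (Cxcl2) and 0.21 (Cxcl3), none at an unadjusted p under 0.05. Neutrophil markers themselves gave 0 of 10 in either direction, with a median of 0.24. This was not stable: 2 were higher without alum replicate 3, 1 without alum replicate 5 (median 0.41), 1 without CAT-ABP + alum replicate 4 or 5, 1 within the shared index set (median 0.40) and 1 with the index set as a block (median 0.63), and 1 was lower without CAT-ABP + alum replicate 1. The calprotectin genes S100a8 and S100a9 were at 19.2 against 11.7 and 27.2 against 17.96 CPM, and Mmp9 was at 119 against 122 CPM. Ly6g, Ngp, Camp, Mpo and Elane, also on the neutrophil list, were too low to be tested.

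Lipid handling genes pointed both ways, with 2 of 17 genes tested higher, 1 lower and a median log2 fold change of 0.17. Without alum replicate 5, 4 genes were higher. Lpl, lipoprotein lipase, was at 14.8, 12.2, 12.4, 12.03 and 23.0 CPM in alum replicates 1 to 5 and at 18.4 to 31.3 CPM (median 22.8) with CAT-ABP + alum. Alum replicate 5 was again the tumor that closed the gap (log2 fold change 0.69 ± 0.20 SE, two-sided exact permutation p = 0.0152). Angptl4, a secreted inhibitor of that lipase and a target of hypoxia and PPAR factors, was at 25.5 ± 8.24 against 16.2 ± 4.53 CPM (0.74 ± 0.22 SE, two-sided exact permutation p = 0.0606), and its log2 fold change was 0.38 within the shared index set. Apoc2, the cofactor that activates the lipase, was lower: 38.0, 30.6, 62.9, 35.3 and 36.5 CPM with alum against 16.5 to 31.7 CPM (median 23.6) with CAT-ABP + alum. In 5 of 6 treated tumors it was below every alum tumor (-0.79 ± 0.20 SE, two-sided exact permutation p = 0.00649). Fabp4, the fatty acid-binding protein of adipocytes and macrophages, was at 46.8 ± 12.5 against 34.6 ± 19.1 CPM, with overlapping groups, and its log2 fold change was 0.47 over all tumors and 0.93 within the shared index set. Scd3, a fatty acid desaturase, was at 9.56 ± 3.39 against 4.80 ± 0.611 CPM.

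**Figure D3:**
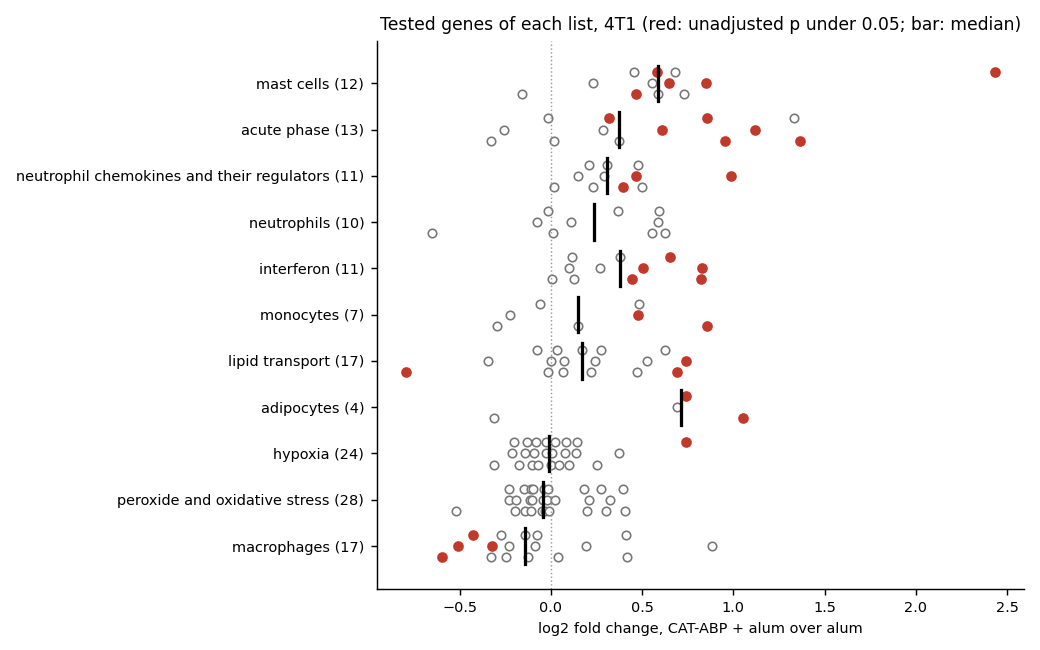
Log2 fold change (CAT-ABP + alum over alum, 4T1) of each tested gene of 11 lists, with the number of genes in brackets, the list median as a bar and genes at an unadjusted p under 0.05 in red. Medians run from 0.71 for the 4 adipocyte genes to -0.14 for macrophage genes, and hypoxia and peroxide genes center on 0.

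Of the 23 lists, macrophage genes alone had more lower than higher genes at an unadjusted p under 0.05: 4 of 17 tested were lower and 0 higher, with a median log2 fold change of -0.14. Adgre1, which encodes F4/80, was at 30.7, 33.1, 26.3, 36.2 and 27.3 CPM with alum and at 20.3 to 25.7 CPM (median 22.4) with CAT-ABP + alum. The groups did not overlap, although the difference was small (-0.43 ± 0.14 SE, two-sided exact permutation p = 0.00216). C1qb, a complement C1q chain of tissue macrophages, was at 91.0 ± 12.01 against 115 ± 18.7 CPM. It averaged 99.9 CPM in the alum tumors of the shared index set and 124.5 CPM in the others, and its log2 fold change of -0.32 was -0.14 with the index set in the model, where it missed the unadjusted threshold. Lyz2, lysozyme M, and Spp1, osteopontin, also differed between the index sets. Over all tumors the two-sided exact permutation p was 0.026 for C1qb, 0.132 for Lyz2 and 0.219 for Spp1. Lyz2 averaged 1119 CPM with CAT-ABP + alum, 1054 CPM in the alum tumors of the same index set and 2140 CPM in those of the other set, and Spp1 averaged 3799, 3638 and 6675 CPM. With the index set in the model their log2 fold changes were 0.07 and 0.05, against -0.60 and -0.51 without it, and the list had 1 lower gene and a median of 0.05. The count of lower genes was also 1 without CAT-ABP + alum replicate 2 or without alum replicate 3, and 2 without CAT-ABP + alum replicate 3 or without alum replicate 5. Adgre1 averaged 31.9 and 29.96 CPM in the 2 sets of alum tumors, and its log2 fold change in that model was -0.50. Cd163, the hemoglobin scavenger receptor, was at 24.3 ± 12.4 against 18.0 ± 6.81 CPM (log2 fold change 0.42, and 0.07 within the shared index set), and Cd68 and Mrc1 had log2 fold changes of -0.09 and 0.04.

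Related myeloid genes at the head of the ranking went both ways. Ly6c2, a surface marker of inflammatory monocytes, was at 25.9 ± 9.53 against 14.5 ± 4.43 CPM (0.86 ± 0.24 SE), with 5 of 6 treated tumors above every alum tumor. Irak3, a brake on Toll-like receptor signaling, was at 3.54 ± 1.57 against 1.205 ± 0.594 CPM. Cx3cr1, the fractalkine receptor of patrolling monocytes and resident macrophages, was at 16.9 ± 4.31 against 25.2 ± 3.69 CPM (-0.59 ± 0.18 SE), and 5 of 6 treated tumors were below every alum tumor. Ly86, which encodes MD-1, the partner of the Toll-like molecule RP105, was at 54.1 ± 10.97 CPM with treatment, at 64.5 CPM in the alum tumors of the same index set and at 102 CPM in the others, with log2 fold changes of -0.69 over all tumors and -0.27 within the shared set. Trf, transferrin, gave 56.0, 68.6, 118, 78.5 and 88.5 CPM with alum and 34.2 to 57.0 CPM (median 50.4) with CAT-ABP + alum (-0.71 ± 0.17 SE), and its log2 fold change was -0.33 within the shared set.

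**Figure D4:**
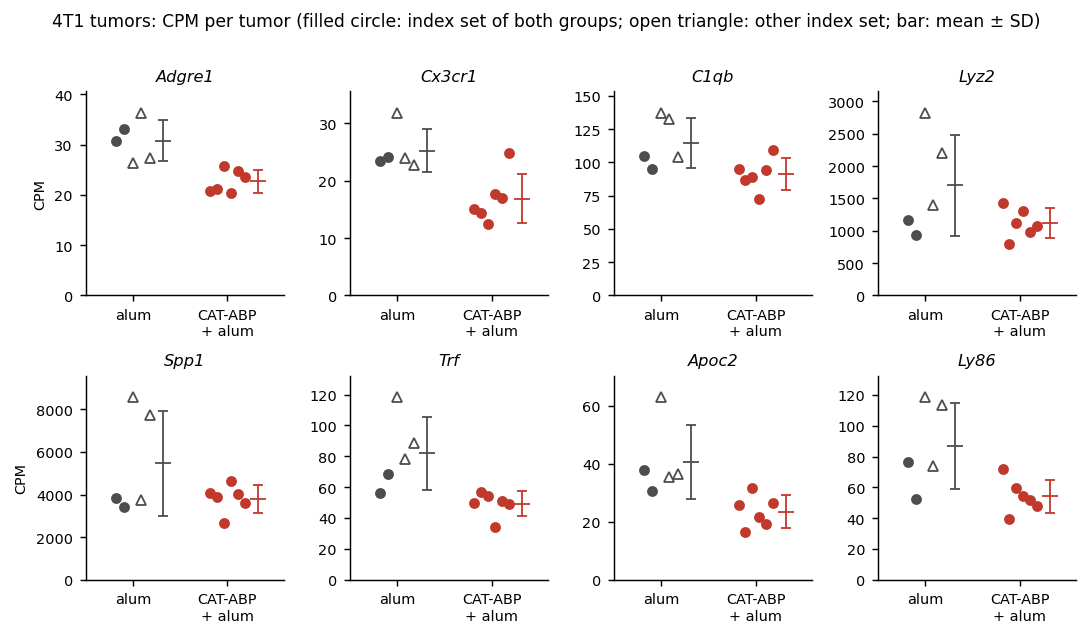
CPM of 8 genes with lower levels after CAT-ABP + alum in each 4T1 tumor (grey, 5 alum tumors; red, 6 CAT-ABP + alum tumors), with the mean ± SD; triangles mark the alum tumors of the other index set. In Lyz2, Spp1 and Ly86 the highest alum values are triangles, whereas in Adgre1 every treated tumor lies below the alum tumors of either index set. The other index set held no treated tumor, so the groups cannot be compared within it.

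Interferon-induced genes, of which Mx1 was among the 30 genes ranked, had 5 of 11 tested genes higher and 0 lower at an unadjusted p under 0.05, with a median of 0.38. Mx1, an antiviral GTPase, was at 8.45 ± 2.09 against 4.73 ± 1.24 CPM (0.83 ± 0.26 SE). The difference came mostly from 1 of the 2 technical libraries: 8.14 against 6.66 CPM in the first and 10.5 against 0.84 CPM in the second. Its technical SD was 1.32 (log2), against an SD between tumors of 0.34 with CAT-ABP + alum and 0.35 with alum. Within the shared index set its log2 fold change was 0.75 and missed the unadjusted threshold. Rsad2, Ifit3, Irf7 and Ifit1, named after their values were seen, had log2 fold changes of 0.45 to 0.82. In mean log2 CPM over the list, CAT-ABP + alum replicates 3 and 5 were above every alum tumor and the other 4 treated tumors were within the alum range. The count of higher genes was 2 without CAT-ABP + alum replicate 3, alum replicate 1 or alum replicate 3, 3 without CAT-ABP + alum replicate 5 or alum replicate 2, and 4 without CAT-ABP + alum replicate 4.

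The remaining genes at the head of the ranking belonged to no list. Of the 30 genes ranked, 4 were models without a gene name. Adgra2, an adhesion receptor of endothelial cells and pericytes, Pop1, a subunit of RNase P, Col23a1, a transmembrane collagen, and Tars, the threonyl-tRNA synthetase, did not overlap between groups, with log2 fold changes of 0.87, 0.70, 0.97 and 0.68. Tars was at 100.2 to 136.8 CPM in 5 treated tumors and at 226.9 CPM in CAT-ABP + alum replicate 4, and without that tumor its log2 fold change was 0.45. Rasgrp1, an exchange factor for Ras, and Abhd10, a mitochondrial thioesterase, lay below the alum tumors without overlap (-0.84 and -0.64). Pdgfc, a platelet-derived growth factor, Pdgfrl and the transcription factor Foxc1 were lower, with log2 fold changes of -0.65, -0.44 and -0.53 and overlapping groups. Within the shared index set Pdgfrl was at -0.22 and missed the unadjusted threshold. Kif3c and Prl8a1 were read at 0 counts in CAT-ABP + alum replicate 4.

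Genes tied to the chemistry of catalase did not stand out. Endogenous Cat averaged 34.8 ± 11.1 CPM in the treated tumors (SD, n = 6) and 41.1 ± 4.18 CPM in the alum tumors (SD, n = 5) (log2 fold change -0.19 ± 0.17 SE, two-sided exact permutation p = 0.253), and the lowest tumor was CAT-ABP + alum replicate 4 at 17.7 CPM. Of 28 genes of peroxide and oxidative stress tested, among them peroxiredoxins, glutathione peroxidases and Nrf2 targets, 0 were higher and 0 lower at an unadjusted p under 0.05 (median -0.04, range -0.52 to 0.41). Of 24 hypoxia genes tested, 1 was higher, Angptl4, and 0 lower (median -0.01). The glycolytic genes Aldoa and Pgk1 and the carbonic anhydrase Car9 had log2 fold changes of 0.00 ± 0.15, -0.10 ± 0.16 and -0.13 ± 0.20 SE, and of -0.04, -0.25 and -0.06 within the shared index set.

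Tumors that had not entered the ranking received the same injections. In CT26, 115 genes (0.896%) were higher and 194 (1.51%) lower at an unadjusted p under 0.05, and in 4T1-CAT 879 (6.71%) and 1104 (8.43%), with 0 at the adjusted threshold in either (edgeR, Benjamini-Hochberg). The lowest adjusted p in CT26 was 0.0569 by that test. With DESeq2, the paper reported a few genes at the adjusted threshold in CT26, among them lower Aldoa, Pgk1 and Car9. Of the 30 genes ranked in 4T1, 29 were tested in each, and 15 had the same sign in CT26 and 14 in 4T1-CAT. At an unadjusted p under 0.05, 1 had the same sign and 4 the opposite sign in CT26, and 2 and 1 in 4T1-CAT. Those with the same sign were Angptl4 in CT26 (0.33 ± 0.13 SE), and Pop1 (0.48 ± 0.20 SE) and Tars (0.39 ± 0.14 SE) in 4T1-CAT. Over all genes tested in both, the same sign was found in 49.7% for CT26 and in 48.6% for 4T1-CAT. The log2 fold change of Ms4a2 was 0.03 ± 0.46 SE in CT26 and -1.12 ± 0.75 SE in 4T1-CAT, and that of Saa3 0.29 ± 0.53 and -0.35 ± 0.34 SE. Cxcl5 stood at 0.70 ± 0.37 SE in CT26 and at -0.36 ± 0.39 SE in 4T1-CAT. Mast cell genes had 1 of 11 higher and 0 lower in CT26 (median 0.34) and 0 of 12 either way in 4T1-CAT (median -0.30), and acute phase genes 1 and 0 of 12 (0.12) and 0 and 0 of 12 (-0.27). Cx3cr1 had the opposite sign in CT26 (1.16 ± 0.41 SE), as had Ly6c2 (-0.71 ± 0.32 SE). When the difference itself was tested, 0 genes differed at the adjusted threshold between 4T1 and CT26 or between 4T1 and 4T1-CAT. At an unadjusted p under 0.05 there were 503 of 14160 genes against CT26 and 1206 of 13851 against 4T1-CAT. The first share was below the 0.05 that this threshold lets through where no gene differs, and the second was above it. DESeq2 gave 0 and 721 genes against CT26, and 0 and 1472 against 4T1-CAT. The adjusted p of Saa3 and Ms4a2 was 0.99999 against CT26 and 0.529 against 4T1-CAT (edgeR interaction term, Benjamini-Hochberg).

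**Figure D5:**
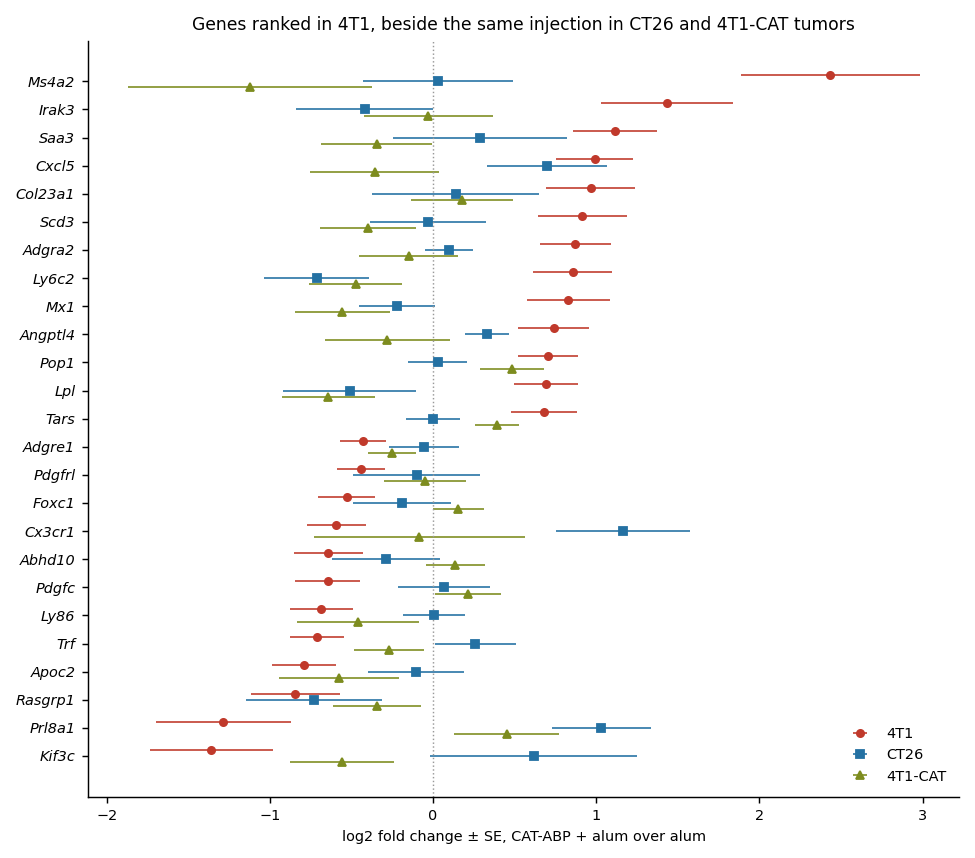
Log2 fold change ± SE (CAT-ABP + alum over alum) of 25 named genes with the smallest p in 4T1, ordered by that value, in 4T1 (red circles), CT26 (blue squares) and 4T1-CAT tumors (green triangles). The 4T1 values chose the genes, and the values of the other tumors lie on both sides of 0.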

How the data were processed

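Whole-tumor poly(A) RNA was sequenced from 3′ digital gene expression libraries on an Illumina NextSeq. The authors converted reads to estimated counts per gene with a Smart-seq2 pipeline on Terra and deposited them unnormalized; aligner, genome build and handling of molecular identifiers are not given in the sources used here. The expected counts of the 2 technical libraries of each tumor (208320 to 6958626 per library) were summed and rounded, which leaves low genes imprecise. Groups came from the labels. Main tests were edgeR 4.0.16 (TMM, filterByExpr, robust quasi-likelihood test, Benjamini-Hochberg, threshold 0.05) in R 4.3.3, on the 2 groups alone, and two-sided exact permutation tests on log2 CPM (prior count 2) over 462 splits. Alternatives used DESeq2 1.42.0 and limma 3.58.1. Fits were tested on simulated data. Named genes were the 15 with the smallest p per direction, listed genes of 6 lists at an unadjusted p under 0.05, and 11 fixed genes. Members and all 23 lists were chosen with earlier results of these data known. Coordinates are GRCm38 (GENCODE M21). The index set was read from the submitters' index tags. Replicate numbers did not pair tumors. 1 gene that met the rule for named genes is not reported here.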

Additional observations from a re-analysis of the deposited data

Results flagged for a closer look

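Each group's most extreme tumor was compared with its neighbor as a share of the group's range (Dixon's gap ratio) in 120 groups of 5 or 6 tumors, and 11 exceeded the critical value, where chance flags about 1 in 20.

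CAT-ABP + alum replicate 4 accounted for 4 of them: its total (gap ratio 0.728), its first principal component (0.873), and its low levels of Trf (0.717) and Rasgrp1 (0.696). Without it the log2 fold changes of those genes were -0.67 and -0.80. CAT-ABP + alum replicate 3 stood high for the mast cell list (0.645). In the alum group, replicate 4 stood low for Gm10925 (0.753) and Il1b (0.904), replicate 5 high for Fcer1a (0.779) and Fabp4 (0.727), replicate 3 high for Cx3cr1 (0.813), and replicate 2 low for the macrophage list (0.727). Without alum replicate 5 the lowest adjusted p of any gene was 0.059, for Hp (edgeR, Benjamini-Hochberg).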

How the results depend on the processing

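No gene reached the adjusted threshold in the 4T1 comparison under any of the 26 alternatives, nor in either interaction under those run. At the unadjusted threshold, the 368 of 13092 genes tested became 1541 of 29787 without a filter on low counts. Without that filter more genes were tested in every comparison. Limma voom with sample weights gave 571 of 13092, and the index set as a block gave 606 of 14284. In an alternative chosen after seeing the data, leaving out both tumors with a shallow library gave 566 of 13107. Leaving out 1 tumor at a time gave 246 of 13264 (without alum replicate 3) to 476 of 13205 genes (without alum replicate 4). For 4T1 minus CT26 (503) no filter gave 1490, and leaving out 1 tumor gave 422 to 556. For 4T1 minus 4T1-CAT (1206) no filter gave 2234, and leaving out 1 tumor gave 782 (without CAT-ABP + alum replicate 1) to 1498. The causes were not tested.

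Of 1274 single gene values under other settings, 1258 kept their sign. With the index set as a block, and within the shared set, Lyz2 was at 0.0732 and 0.0744 and Spp1 at 0.0519 and 0.0531. The Aldoa log2 fold change, at 0.0018, took the values -0.00048 with DESeq2, -0.0035 without filter, -0.0178 with technical replicate 1, -0.0023 without shallow libraries, -0.0453 and -0.0444 for the index set and -0.0911 without both shallow tumors, and -0.0862 to 0.0638 when 1 tumor was left out. Car9 was at 0.0057 with limma voom. Of the 50 named genes, 36 had an exact permutation p under 0.05, also with a prior count of 0.5 and with RLE size factors. Most of the 50 were chosen by small p-values in these same tumors, so that this count is no separate support.

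Replicate numbers do not mark shared animals, and same-numbered tumors correlated at -0.199 to 0.172. A replicate block over tumors 1 to 5 gave 0 genes at the adjusted threshold and 496 of 14186 at the unadjusted one, against 464 of 12949 without it.

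Depth limits the low genes: Ms4a2, Irak3 and Hpx rest on 0 to 39 counts per tumor. With 6 against 5 tumors the median standard error was 0.20 on the log2 scale, so that differences of that order were not detectable here.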

Other observations

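Zc3h11a, a zinc finger protein of mRNA export, was looked at after its values were seen, because the deposited annotation holds 2 gene models for it on almost the same bases of chromosome 1. The model ENSMUSG00000102976 (chr1:133619862-133661380) was at 115.1 ± 40.7 CPM with CAT-ABP + alum and at 27.0 ± 26.7 CPM with alum, and ENSMUSG00000116275 (chr1:133619871-133661380) was at 34.7 ± 32.8 and 122.5 ± 21.9 CPM. Their sum was 149.8 ± 18.5 and 149.5 ± 6.09 CPM (two-sided exact permutation p = 0.952), so that reads were divided differently between the models while the total did not separate the groups.

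T and NK cell genes, which were no part of the ranking, had 1 of 11 tested genes higher at an unadjusted p under 0.05 (Trbc2, 13.4 ± 6.13 against 9.47 ± 1.76 CPM) and 0 lower, and all 11 had a log2 fold change above 0, with a median of 0.52. CAT-ABP + alum replicate 3 was the highest tumor of this list too, and without it 0 genes were higher and the median was 0.20. The count was 3 without CAT-ABP + alum replicate 6, 2 without replicate 5 and 0 without replicate 1 or without alum replicate 2, 3 or 5, and limma voom gave 0 higher and a median of 0.14. Proliferation genes had 0 of 10 in either direction, with a median of -0.02.

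The lists not described above had few genes at an unadjusted p under 0.05. Monocyte genes had 2 of 7 tested higher and 0 lower (median 0.15), but 1 higher without any one of CAT-ABP + alum replicates 1, 3 and 4 or of alum replicates 1, 2 and 3, and 3 within the shared index set (median 0.35). Fibroblast genes had 1 of 11 higher (median 0.21) and inflammasome and IL-1 genes 1 of 10 higher (median -0.06), each with 0 lower. CC chemokines (13 tested, median 0.01), eosinophil and type 2 genes (7, 0.29), endothelial genes (9, -0.06), epithelial tumor (7, -0.09), epidermis (2, -0.27) and B and plasma cell genes (2, -0.05) had 0 in either direction over all tumors. These counts were not stable: within the shared index set fibroblast genes had 2 higher, CC chemokines, epidermis and B and plasma cell genes 1 higher each and epithelial tumor genes 1 lower, and leaving out 1 tumor gave 0 to 2 genes in a direction for the fibroblast, inflammasome, CC chemokine and eosinophil lists, and 0 or 1 for the endothelial and B and plasma cell lists.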
